A study of Rattus norvegicus with 21 samples.

Results

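The collagen genes are described here in the endocrine islets of Langerhans, small groups of insulin- and glucagon-making cells within the pancreas, of rats that had lost most of the pancreas. Members were all rows of the deposited count table whose gene name has the form Col, a number, the letter a and a number. There were 43 such genes among 28914 rows. Of these, 29 had enough counts to enter the test, among 13136 genes tested in all, and the other 14 are given by their levels only. The sequencing libraries were made from polyadenylated RNA of islets of Lewis rats described as 4 to 5 weeks old, without a statement of whether that age was at surgery or at the end. In the PX group (11 libraries) 90% of the pancreas had been removed by partial pancreatectomy, and the sham group (10 libraries) had a sham operation. Both groups were followed for 4 weeks, and the labels name no transgene or drug in either. All titles also hold the item Inc_YES, whose meaning is not given in the sources used here. Each library is named by its group and the animal number in its title; nothing beyond that number states that libraries came from separate animals, so the p-values cover the variation among the libraries as they are labelled.

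Collagens are triple helices of 3 chains, which come from the same gene or from different genes of a type. Fibrillar collagens (types I, II, III, V, XI, XXIV and XXVII) build fibrils of connective tissue, and types I and III are the bulk of scar. Type IV forms the sheet of the basement membrane that lies under epithelial and endothelial cells, and types XV and XVIII are proteoglycans at the edge of that sheet. In an islet, the basement membrane belongs mainly to the capillaries, on which beta cells rest, and the surrounding capsule and vessel walls hold fibrillar and type VI collagen. Fibroblasts, pericytes and pancreatic stellate cells are the usual makers of fibrillar collagen, and endothelial cells and pericytes of type IV.

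Total counts ran from 4695195 to 11266015 in sham and from 4001908 to 13187959 in PX. Levels are given as CPM, read counts scaled to a common library size that is corrected by TMM, a factor that aligns each library to the others over most genes. The factor was 0.359 in PX 65 and 0.820 to 1.27 in the other libraries. A lower factor gives a higher CPM for the same share of counts. Of all counts, genes of the acinar cells that surround islets (18 markers, mostly digestive enzymes) took 0.514% to 19.2% in sham and 5.17% to 44.2% in PX, the highest share being in PX 65. Endocrine cells, as the label says, were present: the summed CPM of 10 endocrine markers lay at 92900 to 169000 in sham and 82300 to 240000 in PX, and none was at 0. The animal numbers fall into runs, sham 21 to 24, PX 36 to 44, sham 46 to 50, PX 57 to 70, and sham 73 and 74; each run holds 1 group, so a run and a group cannot be told apart, and the labels call none of them a batch. Sham 73 and 74 were put together with sham 21 to 24 in the alternatives, a choice that the numbers and labels do not give and that was made with earlier results of these data known. The libraries so joined had acinar shares of 0.514% to 5.41%, against 10.8% to 19.2% in sham 46 to 50. Before the results, 2 libraries need naming. Sham 46 had the highest sham level of 18 of the 29 tested collagen genes, and PX 44, the PX animal with the lowest BG, had the lowest PX level of 16.

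In PX islets most tested fibrillar collagen genes rose, as did some of the basement membrane and microfibril genes, while Col27a1, the most abundant collagen transcript of sham islets, was not called and 3 genes fell. With edgeR's quasi-likelihood test and Benjamini-Hochberg adjustment at 0.05, 17 of the 29 tested collagen genes were higher in PX and 3 were lower. Over all genes tested, 14.9% were higher and 16.2% were lower. The all-gene split depends on scaling, with 1961 higher and 2127 lower under TMM, 990 and 2227 under library totals alone and 2185 and 1646 under DESeq2 size factors; the collagen counts were 15 and 3 under totals and 18 and 3 under size factors. The median log2 fold change was 0.87 for the collagen genes and -0.04 for all genes. Of 9 tested fibrillar genes 7 were higher, 1 was lower and 1 was not called, with a median of 1.90. Among 7 basement membrane genes 4 were higher, 1 was lower and 2 were not called (median 0.87). Of the 5 that belong to type IV, without Col15a1 and Col18a1, 2 were higher, 1 was lower and 2 were not called (median 0.34). In the remaining classes 6 of 13 were higher, 1 was lower and 6 were not called (median 0.43). In bulk RNA, a change in the number of collagen-making cells and a change in RNA per cell cannot be told apart.

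**Figure D1:**
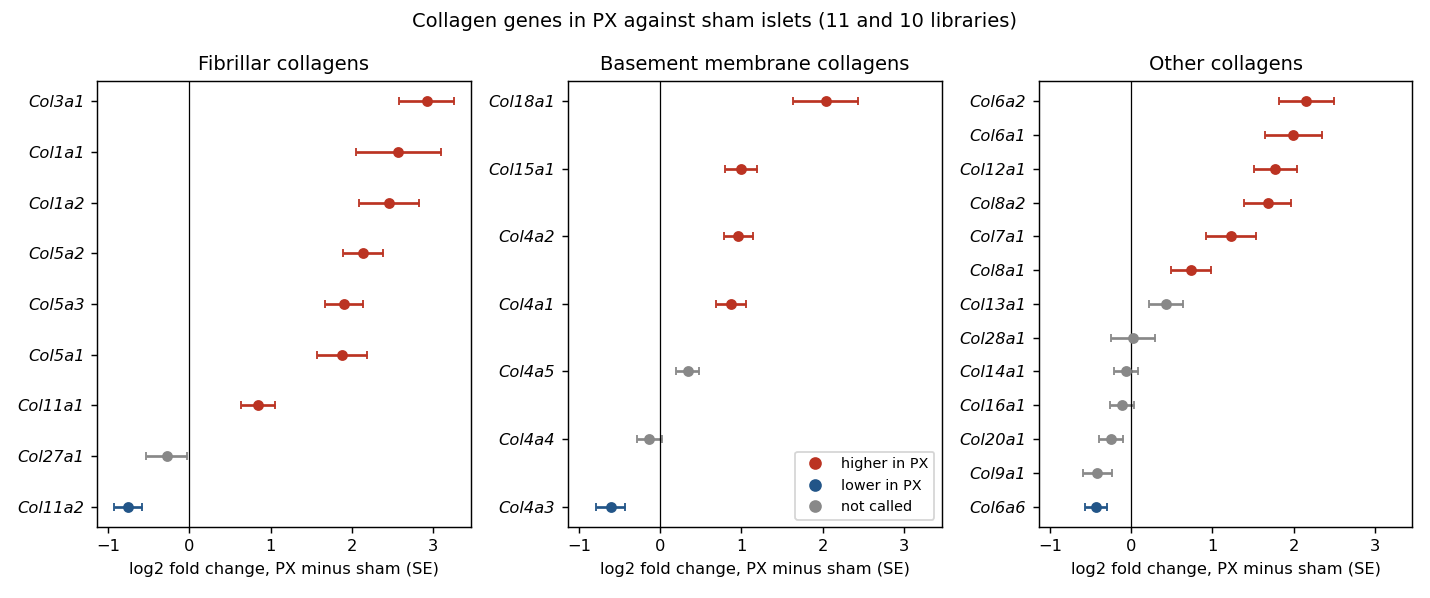
Log2 fold change of PX minus sham (x axis; points, edgeR estimates over 11 PX and 10 sham libraries; bars, standard error) for the 29 tested collagen genes in 3 classes; red marks genes called higher, blue called lower, grey not called. Col3a1 stands at the top with 2.92, and the lower calls are Col11a2, Col4a3 and Col6a6, 1 in each class.

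Type III collagen, which gives loose and newly laid connective tissue its fine fibrils, comes from the single gene Col3a1 (chr9:52023295-52059217, plus strand, in the coordinates of the deposited table, whose build is not given in the sources used here). Col3a1 stood at 82.7 CPM in the lowest, 101 in the median and 380 in the highest sham library. In PX the same values were 372, 1001 and 1772 CPM. Apart from sham 46 no sham library reached the lowest PX library. Sham 46 at 380 CPM passed PX 44 and no other PX library; the next sham library was at 149. The log2 fold change was 2.92 ± 0.34 (SE; edgeR adjusted p = 2.3e-06), a 7.56-fold rise.

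Type I collagen, the main collagen of scar, is built from Col1a1 (chr10:82745801-82762789, plus strand) and Col1a2 (chr4:31534225-31569151, plus strand). Col1a1 ran from 8.55 through a median of 21.4 to 129 CPM in sham, and from 17.6 through 163 to 392 CPM in PX. The sham and PX libraries overlapped through 2 libraries: sham 46 at 129 CPM against 27.9 in the next sham library, and PX 44 at 17.6 CPM against a sham median of 21.4. The log2 fold change was 2.57 ± 0.52 (edgeR adjusted p = 0.00091), and without sham 46 it was 3.28. Col1a2 had 1.33, 2.41 and 8.42 CPM (lowest, median and highest) in sham and 4.50, 13.4 and 34.8 CPM in PX, a log2 fold change of 2.45 ± 0.37 (edgeR adjusted p = 3.7e-05). Here every PX library lay above every sham library other than sham 46. The 250 bases before the start of Col1a2 are shown because CCAAT and TATAAA, the letters of 2 classical promoter boxes, both stand in them; capitals mark CCAAT, the TATA box letters TATAAA and, in the other promoters, the GC box letters GGGCGG, each on either strand. The sequence is RefSeq's on GRCr8 at chr4:33518307-33518556, plus strand.
Col1a2: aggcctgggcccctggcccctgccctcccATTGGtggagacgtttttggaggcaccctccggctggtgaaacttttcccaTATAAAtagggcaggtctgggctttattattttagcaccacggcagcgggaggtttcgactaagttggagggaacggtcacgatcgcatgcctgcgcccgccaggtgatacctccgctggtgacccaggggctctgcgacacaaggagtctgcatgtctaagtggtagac
The CCAAT match is read as ATTGG, on the opposite strand. Over the 250 bases before the start, CCAAT stood in 34.3%, GGGCGG in 32.4% and TATAAA in 13.1% of 27457 RefSeq promoters, and in 32.4%, 55.9% and 11.8% of the 34 collagen promoters with a window, which are descriptions of letters and not of binding.

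Type V collagen sits inside type I fibrils and limits their width, and all of its chains rose. Col5a2 (chr9:52092511-52238564, minus strand), which lies tail to tail beside Col3a1 with 33293 bases between them in the deposited coordinates, had 12.5, 16.6 and 45.5 CPM in the lowest, median and highest sham library and 40.8, 84.1 and 137 CPM in PX. Its log2 fold change was 2.14 ± 0.25 (edgeR adjusted p = 2.0e-06), and 10 of 11 PX libraries lay above every sham library. Col5a1 (chr3:6430201-6578882, plus strand) had 5.54, 8.75 and 25.1 CPM in sham and 9.27, 35.7 and 72.8 CPM in PX. Its log2 fold change was 1.88 ± 0.31 (edgeR adjusted p = 8.3e-05), with 8 of 11 PX libraries above every sham library. Col5a3, the less widespread chain of the type, was 1 of only 2 collagen genes whose groups did not overlap at all: sham ran from 6.48 to 11.0 CPM (median 8.31) and PX from 12.6 to 65.5 (median 31.7). Its log2 fold change was 1.90 ± 0.23 (edgeR adjusted p = 3.0e-06).

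The type XI chains, which join type V in thin fibrils and are best known from cartilage, went opposite ways. Col11a1 had 3.59, 5.84 and 9.07 CPM in sham and 4.02, 11.4 and 17.9 CPM in PX, so the groups overlapped over much of their range. It rose by 0.84 ± 0.21 on the log2 scale (edgeR adjusted p = 0.0034), and was not called when libraries were scaled by their totals alone (0.67, adjusted p = 0.081; 5.6e-05 to 0.081 over 19 alternatives). Col11a2 (chr20:3830164-3859018, plus strand) had 10.1, 14.1 and 16.8 CPM in sham and 4.45, 7.23 and 15.3 CPM in PX. It fell by 0.76 ± 0.17 (edgeR adjusted p = 0.0017), with 9 of 11 PX libraries below every sham library; PX 37, at 15.3 CPM, and PX 44 were the exceptions. With PX 36 to 44 alone, or against sham 46 to 50 alone, Col11a2 was not called (-0.46 and -0.69, adjusted p = 0.16 and 0.056; 5.8e-06 to 0.16 over 19 alternatives).

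Col27a1 (chr5:79055521-79170765, plus strand), a fibrillar chain best known from cartilage, was the highest collagen transcript of sham islets. It had 426, 648 and 727 CPM in the lowest, median and highest sham library. In PX it spread from 125 through 442 to 1288 CPM: PX 65, with the largest acinar share, was the lowest, PX 37 was above all sham libraries, and 5 PX libraries were below all of them. The log2 fold change of -0.28 ± 0.25 was not called (edgeR adjusted p = 0.42). It was 0.096 with PX 36 to 44 alone and -0.57 with PX 57 to 70 alone, neither of them called (edgeR adjusted p = 0.87 and 0.073). The fibrillar genes Col2a1 (cartilage collagen) and Col24a1 had too few counts to be tested, with medians of 0.30 and 0.31 CPM in sham and 0.21 and 0.79 in PX.

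**Figure D2:**
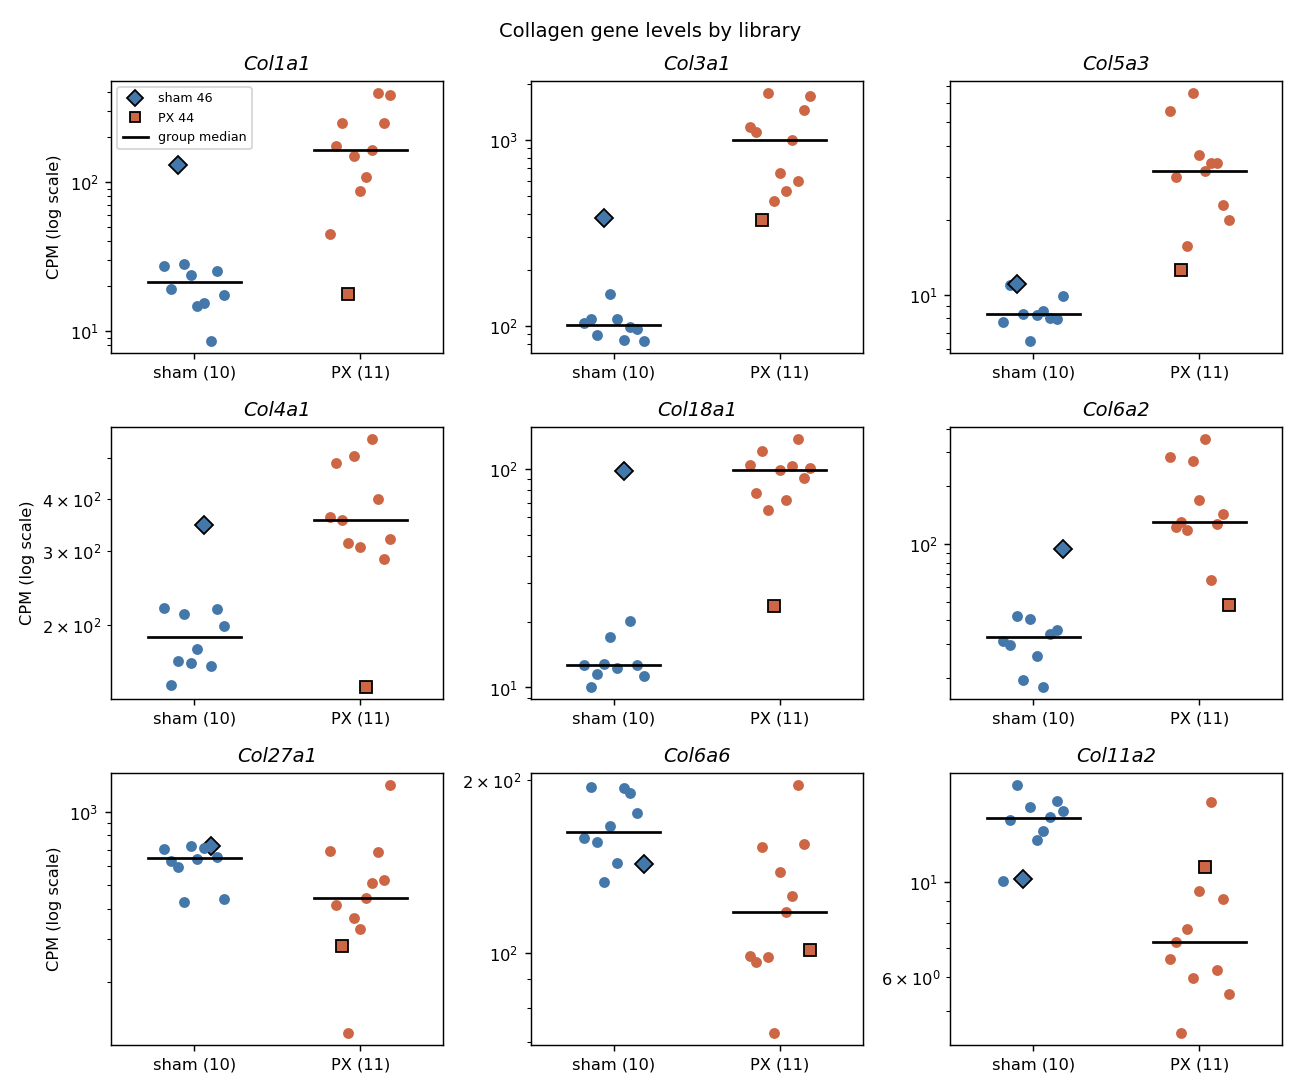
CPM (y axis, log scale) of 9 collagen genes in each of 10 sham (blue) and 11 PX (orange) libraries; bars mark group medians, the diamond sham 46 and the square PX 44. Sham 46 sits with the PX libraries for Col1a1, Col4a1 and Col18a1, PX 44 sits at or near the sham libraries for the same genes, and Col5a3 separates the groups fully.

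Type IV collagen is made from 6 genes in 3 head-to-head pairs; Col4a1 and Col4a2 form the network found in all basement membranes, Col4a3, Col4a4 and Col4a5 a network of special membranes such as that of the kidney glomerulus. Col4a1 (chr16:83522162-83632153, plus strand) had 144, 187 and 346 CPM in sham and 142, 356 and 556 CPM in PX. Sham 46 was the highest sham library and PX 44, at 142 CPM, was below all sham libraries; 6 of 11 PX libraries lay above every sham library. Col4a1 rose by 0.87 ± 0.18 on the log2 scale (edgeR adjusted p = 0.00092). Col4a2 (chr16:83387364-83438561, minus strand) had 78.5, 109 and 240 CPM in sham and 108, 228 and 322 CPM in PX. Apart from sham 46 the sham libraries reached 124 CPM, and 10 of 11 PX libraries lay above that value, PX 44 being at 108. Its rise was 0.96 ± 0.18 (edgeR adjusted p = 0.00030).

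The shared promoter of this pair is shown because both genes start from it in opposite directions in RefSeq and both rose. RefSeq on GRCr8 puts 76 bases between the starts, at chr16:84885521-84885596, printed on the plus strand, with capitals as for Col1a2. The deposited coordinates instead leave 83600 bases between the 2 genes, so the counted gene models do not both start at this stretch.
Col4a2-Col4a1: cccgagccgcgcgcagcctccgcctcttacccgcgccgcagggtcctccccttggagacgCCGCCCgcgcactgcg
It holds 1 GGGCGG, read as CCGCCC on the other strand, no CCAAT and no TATAAA, and 78.9% of its bases are G or C.

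The genes of the second head-to-head pair were not among those that rose. Col4a3 (chr9:88357556-88485830, plus strand) had 7.54, 15.5 and 21.4 CPM in sham and 6.35, 9.06 and 18.9 CPM in PX. All PX libraries but 1, PX 37, were below the sham median, and the groups overlapped. Col4a3 fell by 0.61 ± 0.18 (edgeR adjusted p = 0.013). It was not called with an acinar score (the mean log2 CPM of the 18 acinar markers) as a covariate (-0.39), with the 8 PX animals of BG 121 or less (-0.48), with PX 36 to 44 alone (-0.25) or against sham 46 to 50 alone (-0.34; adjusted p = 0.00033 to 0.51 over 19 alternatives). Its partner Col4a4 (chr9:88232455-88357182, minus strand) had 16.97, 21.6 and 32.5 CPM in sham and 15.7, 19.7 and 38.3 in PX, a log2 difference of -0.13 ± 0.15 that was not called (edgeR adjusted p = 0.53). Col4a5, on chromosome X, was not called at 0.34 ± 0.14 (edgeR adjusted p = 0.076) and was called higher in 8 of 19 alternatives, among them without PX 44 (0.43, adjusted p = 0.019; 0.019 to 0.75 over the 19). Col4a6 had too few counts to be tested. The starts of Col4a4 and Col4a3 lie 412 bases apart on GRCr8, and the 250 bases next to Col4a3, at chr9:91323740-91323989 on the plus strand, are set beside the Col4a1 pair for comparison.
Col4a3: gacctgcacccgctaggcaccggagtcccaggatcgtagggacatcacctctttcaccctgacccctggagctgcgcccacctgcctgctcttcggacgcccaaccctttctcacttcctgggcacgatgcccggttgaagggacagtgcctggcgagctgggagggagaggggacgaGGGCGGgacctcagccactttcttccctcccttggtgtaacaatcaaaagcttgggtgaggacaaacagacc
This stretch also holds 1 GGGCGG and neither of the other motifs, with 62% G or C.

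The basement membrane proteoglycan collagens both rose, Col15a1 and Col18a1, whose last part is released as endostatin. Col18a1 (chr20:12225202-12332858, plus strand) had 10.1, 12.6 and 97.5 CPM in sham and 23.6, 98.9 and 136 CPM in PX. The 97.5 CPM belong to sham 46 and come close to the PX median; the next sham library had 20.1 CPM, and PX 44 had 23.6. The log2 fold change was 2.04 ± 0.40 (edgeR adjusted p = 0.00064), and without sham 46 it was 2.82. It was 2.93 against sham 21 to 24, 73 and 74, and 1.51 against sham 46 to 50. Col15a1 (chr5:62840360-62950240, plus strand) had 13.0, 24.03 and 35.9 CPM in sham and 24.2, 47.04 and 67.0 CPM in PX, with a log2 fold change of 0.99 ± 0.20 (edgeR adjusted p = 0.00051). Sham 46 was not the highest sham library there. The bases before Col18a1 are shown for their 3 GGGCGG matches, all on the opposite strand, at chr20:11473395-11473644 on GRCr8, plus strand.
Col18a1: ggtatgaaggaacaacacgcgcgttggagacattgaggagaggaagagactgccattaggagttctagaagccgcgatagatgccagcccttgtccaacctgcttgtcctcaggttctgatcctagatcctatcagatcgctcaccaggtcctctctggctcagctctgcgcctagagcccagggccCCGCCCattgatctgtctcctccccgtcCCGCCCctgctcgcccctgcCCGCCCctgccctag
No CCAAT or TATAAA stands in these 250 bases.

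Type VI collagen forms beaded microfibrils around cells. Its chains Col6a1 (chr20:12658065-12675561, plus strand) and Col6a2 (chr20:12773427-12801180, plus strand), neighbours in the same direction, both rose. Col6a1 had 15.9, 35.6 and 94.7 CPM in sham and 39.2, 121 and 349 CPM in PX, a log2 fold change of 1.997 ± 0.354 (edgeR adjusted p = 0.00024). Col6a2 had 18.1, 32.7 and 94.3 CPM in sham and 47.99, 130 and 352 CPM in PX, a log2 fold change of 2.16 ± 0.34 (edgeR adjusted p = 6.5e-05). For both, 9 of 11 PX libraries were above sham 46 and so above every sham library. Col6a6 (chr8:114353825-114449956, minus strand), a long chain of type VI, had 133, 162 and 195 CPM in sham and 72.6, 118 and 196 CPM in PX. It fell by 0.43 ± 0.14 (edgeR adjusted p = 0.019), with 7 PX libraries below every sham library and PX 37 above all of them. Without PX 44 its fall was 0.34 and not called (adjusted p = 0.053), and it was not called in 7 of 19 alternatives in all (adjusted p = 0.0020 to 0.41).

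Among the network and fibril-surface collagens, type VIII, a short-chain network of vessel walls, rose in both chains. Col8a2 was the other gene with no overlap between groups, at 1.26, 2.07 and 2.91 CPM in sham against 2.95, 4.81 and 16.2 CPM in PX (log2 fold change 1.68 ± 0.28, edgeR adjusted p = 0.00011). The gap between the highest sham and the lowest PX library was small. Col8a1 rose by 0.74 ± 0.25 (edgeR adjusted p = 0.025), from a sham median of 6.51 to 11.4 CPM; it was not called in 5 of 19 alternatives, among them library totals and the authors' deposited table (adjusted p = 0.00034 to 0.19). Col12a1, a fibril-associated collagen of tendon and scar, had 6.70, 11.9 and 33.7 CPM in sham and 18.9, 40.1 and 85.5 CPM in PX, a log2 fold change of 1.78 ± 0.26 (edgeR adjusted p = 2.7e-05). Col7a1, the anchoring fibril collagen of skin, rose by 1.23 ± 0.31 from a median of 2.84 to 7.78 CPM (edgeR adjusted p = 0.0042). With PX 36 to 44 alone and against sham 46 to 50 alone its log2 fold change was 1.17 and 1.22. These were not called (edgeR adjusted p = 0.069 and 0.072), in fits with fewer libraries. Over 19 alternatives the adjusted p was 8.1e-05 to 0.072.

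The other tested fibril-associated collagens were not called. Col16a1 (chr5:148257642-148311645, plus strand) had 139, 174 and 232 CPM in sham and 119, 143 and 325 CPM in PX (-0.11 ± 0.15, edgeR adjusted p = 0.57). Col9a1 (chr9:30419001-30502298, plus strand), best known from cartilage, had 68.3, 107 and 149 CPM in sham and 48.4, 78.6 and 150 CPM in PX. Its log2 difference of -0.41 ± 0.18 had an edgeR adjusted p of 0.077, and it was called lower in 3 of 19 alternatives, the authors' deposited table among them. Col14a1, which binds fibril surfaces, ran from 46.3 to 84.5 CPM in sham and from 35.4 to 75.5 in PX, and its log2 difference of -0.06 ± 0.15 was not called (edgeR adjusted p = 0.78). Col20a1 (-0.25), Col28a1 (0.02) and the transmembrane Col13a1 (0.43) were also not called; Col13a1 was called higher in 4 of 19 alternatives, without PX 44 and without sham 46 among them. In 8 of the 12 tested genes that did not rise, PX 37 was the highest PX library.

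Every PX library lay above every sham library for 2 of the 29 collagen genes, against 1.55% of all genes tested, and below for 0 of 29, against 0.145%. With sham 46 set aside, 8 collagen genes separated, Col1a2, Col3a1, Col5a2, Col5a3, Col8a2, Col12a1, Col18a1 and Col6a2, against 3.17% of all genes. Of the 17 genes called higher, sham 46 was the highest sham library for 15 and PX 44 the lowest PX library for 14. When PX 44, PX 65 and sham 46 were all left out, an alternative chosen after seeing the data, 19 collagen genes were higher and 2 lower. Of all 12970 genes then tested, 2603 were higher and 2232 lower. From the 20 collagen calls 19 were kept, and Col6a6 was the one lost.

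The 14 genes too low to test were Col2a1, Col24a1, Col4a6, Col6a4, Col6a5, Col9a2, Col9a3, Col10a1, Col17a1, Col19a1, Col22a1, Col23a1, Col25a1 and Col26a1. Col23a1 had no count in any library. Col6a5, a type VI chain beside Col6a6 on chromosome 8, had at most 1.35 CPM in sham; in PX its median was 1.26 CPM and its highest value 25.5, in PX 62. The others stayed under 5.20 CPM everywhere.

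Per kilobase of the gene length in the deposited table, so that genes can be set side by side, the order of levels changed between groups. In sham the median level was 116 CPM per kilobase for Col27a1, then 33.2 for Col16a1, 28.5 for Col4a1, 28.2 for Col9a1, 23.9 for Col6a6, 22.1 for Col4a2 and 21.3 for Col3a1. The order among the genes after Col27a1 was not tested. In PX, Col3a1 stood first at 210 CPM per kilobase, ahead of Col27a1 at 79.3, Col4a1 at 54.1, Col4a2 at 46.2, Col6a1 at 39.3, Col6a2 at 35.3 and Col1a1 at 28. Col1a1 was in the 13th place in sham, at 3.67.

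Summed over all 43 genes, collagen made 286 to 546 CPM per kilobase in sham (median 344) and 324 to 1000 in PX (median 662); the highest sham value was sham 46 and the lowest PX value PX 44. Counts of collagen genes were 0.139% to 0.313% of all counts in sham and 0.102% to 0.578% in PX. Within that sum Col27a1 held 23.9% to 36.9% in sham (median 33.0%) and 3.91% to 24.6% in PX (median 14.7%). Col3a1 held 5.58% to 14.6% in sham (median 6.19%) and 19.0% to 40.3% in PX (median 24.1%). All fibrillar genes together held 36.5% to 46.5% in sham (median 45.0%) and 43.4% to 56.3% in PX (median 54.1%), so the groups overlapped. Without Col27a1, an exclusion made with these data known, the fibrillar genes went from a median of 10.2% (9.24% to 22.4%) to 33.1% (25.4% to 50.4%). The groups did not overlap in that share. The remaining classes went from a median of 37.7% (29.7% to 46.1%) to 28.3% (23.3% to 35.1%). The basement membrane share overlapped fully, at medians of 19.0% and 19.7%.

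**Figure D3:**
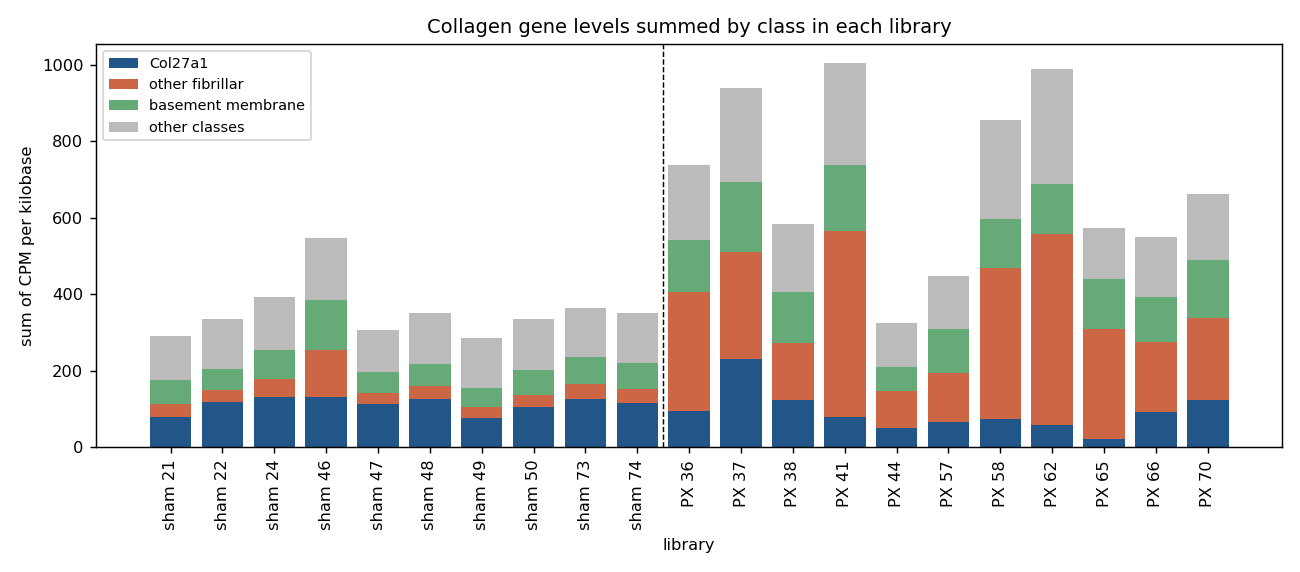
Sum of CPM per kilobase (y axis) of the 43 collagen genes in each library (x axis; sham left and PX right of the dashed line), stacked by Col27a1, other fibrillar, basement membrane and other classes. The orange block, the fibrillar genes without Col27a1, is the smallest block in every sham library and the largest in most PX libraries.

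Ratios of 2 genes within a library do not depend on how libraries are scaled. There were 11 such log2 ratios of chains of a trimer or of neighbouring types, tested by two-sided permutation of the group means with 100000 resamples and adjusted over the 11. Col5a2 to Col3a1 fell from -2.59 ± 0.23 (SD, n = 10) to -3.36 ± 0.25 (SD, n = 11), lower than the sham mean in 11 of 11 PX libraries (adjusted permutation p = 0.00022, from the smallest p that the resamples can give). Col5a1 to Col1a1 also fell, from -1.43 ± 0.48 to -2.16 ± 0.68 (SD; adjusted permutation p = 0.024; 9 of 11 libraries lower). Col5a2 thus rose less than Col3a1, and Col5a1 less than Col1a1, the chains of the fibrils that type V joins.

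Against Col4a1, the common basement membrane chain, Col18a1 rose from -3.20 ± 0.74 to -1.66 ± 0.44 and Col1a1 from -2.91 ± 0.70 to -1.18 ± 1.02 (SD; adjusted permutation p = 0.00033 and 0.0018), both above the sham mean in 11 of 11 PX libraries. Col6a1 to Col6a2 moved by a small amount, from 0.32 ± 0.16 to 0.12 ± 0.14 (SD; adjusted permutation p = 0.017; 10 of 11 libraries lower), and was not called with the 8 PX animals of BG 121 or less (adjusted permutation p = 0.059). The ratio of Col4a5 to Col4a1 differed by -0.50 (adjusted permutation p = 0.097) and was called lower on leaving out PX 44, PX 65 or sham 46 (-0.59, -0.59 and -0.68). The ratios Col1a1 to Col1a2, Col3a1 to Col1a1, Col4a1 to Col4a2, Col15a1 to Col4a1 and Col8a1 to Col4a1 were not called, with differences of 0.17, 0.34, -0.15, 0.14 and -0.17 (adjusted permutation p = 0.53, 0.39, 0.30, 0.62 and 0.50).

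**Figure D4:**
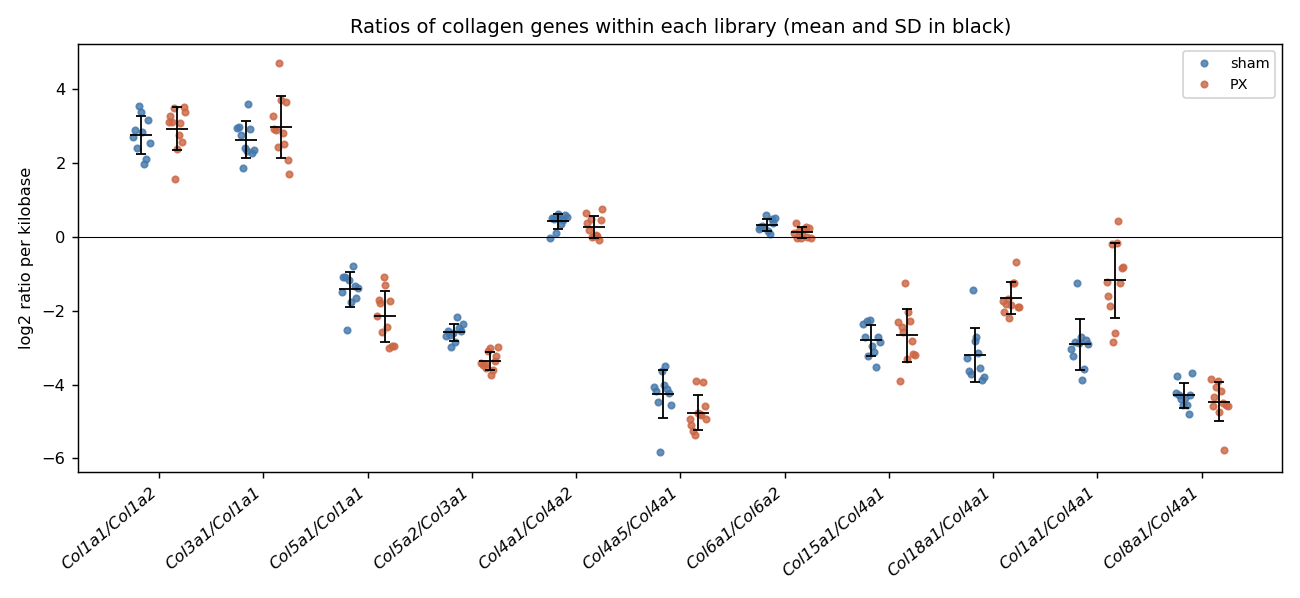
Log2 ratio of 2 collagen genes per kilobase (y axis) in each sham (blue) and PX (orange) library for the 11 ratios (x axis), with the mean and SD in black. Col5a2/Col3a1 sits lower in PX (mean -3.36 against -2.59), and Col18a1/Col4a1 and Col1a1/Col4a1 sit higher.

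The labels give each animal an average BG before sacrifice, without a unit: 82 to 104 in sham (median 96.5) and 101 to 174 in PX (median 114). Within the 11 PX libraries, the slope of log2 expression on BG was fitted for 34 collagen genes with enough counts, and none was called at an edgeR adjusted p under 0.05; of all 14442 genes, 0% were called. At an unadjusted p under 0.05 there was 1 collagen gene of 34, against 12.2% of all genes. That gene was Col27a1, at -0.23 ± 0.10 (SE) per 10 units of BG (edgeR p = 0.040, adjusted p = 0.40). Its level was 125 CPM in PX 65, the animal of highest BG, and without that library the slope was -0.098. DESeq2 and limma voom called 27 and 35 genes in all, and no collagen gene.

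Next in order of p were Col11a2 (-0.13 ± 0.06 per 10 units, edgeR adjusted p = 0.44) and Col14a1 (-0.09 ± 0.05, edgeR adjusted p = 0.47). For 4 abundant genes that rose in PX the slopes were no larger than their standard errors: Col3a1 0.08 ± 0.09, Col4a1 0.004 ± 0.066, Col4a2 0.04 ± 0.05 and Col1a1 0.01 ± 0.15 (edgeR adjusted p = 0.75, 0.99, 0.78 and 0.98). Col18a1 and Col5a2, which also rose, had slopes above their standard errors, 0.106 ± 0.065 and 0.074 ± 0.069 (edgeR adjusted p = 0.52 and 0.67). Col16a1 had -0.05 ± 0.06. Slopes in PX and in sham were set against each other in 1 fit over 21 libraries, chosen after seeing the data, and 0 of 29 collagen genes differed in slope (145 genes of all had an unadjusted p under 0.05, and no gene was called). With the 8 PX animals of BG 121 or less against sham, 17 collagen genes were still higher and 1 was lower. Col4a3 and Col6a6 were then not called. Over all genes, 1593 of 13226 were higher and 957 lower in that setting.

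**Figure D5:**
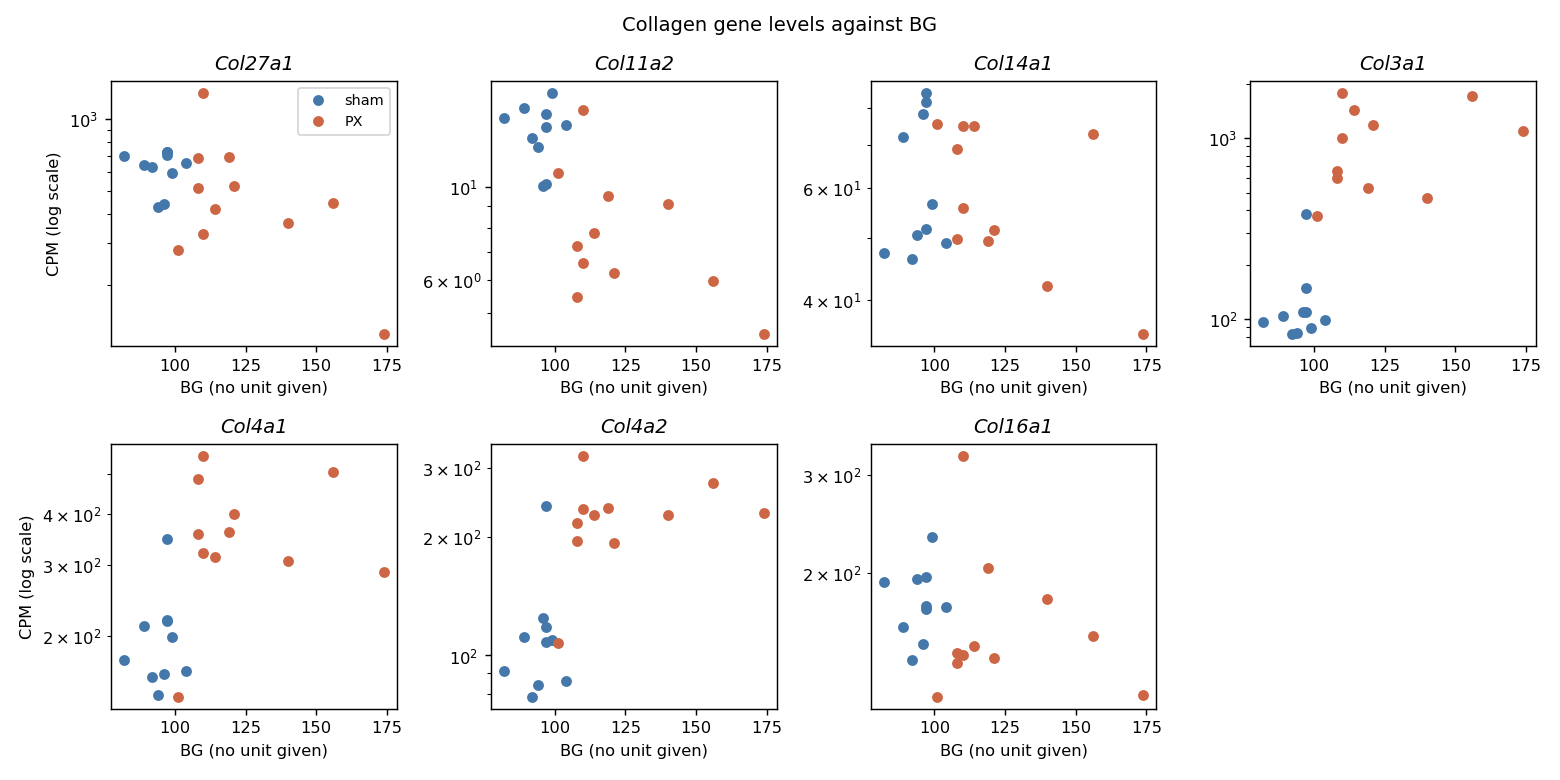
CPM (y axis, log scale) against the BG of the label (x axis, no unit given) for 7 collagen genes in sham (blue) and PX (orange) libraries. Within PX, Col27a1, Col11a2 and Col14a1 are lowest in the animal of BG 174, and Col3a1 and Col4a1 show no common direction.

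The proteins that fold, cut, join and bind collagen were read from lists, by the same test. For comparison with the counts in each list, 14.9% of all genes tested were higher and 16.2% were lower. Of 21 tested genes for collagen maturation and secretion 13 rose, 2 fell and 6 were not called (median log2 fold change 0.37). Plod2, which hydroxylates lysines of the helix ends for cross-links, rose by 2.51 ± 0.30, and Fkbp10, its partner in the endoplasmic reticulum, by 2.05 ± 0.25 (edgeR adjusted p = 2.8e-06 and 2.5e-06). Pcolce, an enhancer of the enzyme that removes the procollagen tail, rose by 2.01 ± 0.28, and Serpinh1 (Hsp47), the collagen chaperone, by 1.79 ± 0.30 (edgeR adjusted p = 1.8e-05 and 0.00012).

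Of 6 cross-linking genes 5 rose and 1 was not called (median 1.56): Pxdn, the peroxidasin that bonds type IV collagen, by 1.61 ± 0.21, and the lysyl oxidases Loxl1 by 1.95 ± 0.31, Lox by 1.52 ± 0.26 and Loxl3 by 1.26 ± 0.26 (edgeR adjusted p from 8.4e-06 to 0.00067). Of 7 collagen receptors 4 rose and 3 were not called (median 0.71). The share higher over all genes was 14.9%, for both lists. Adgrg6, an adhesion receptor that binds type IV collagen, went from 2.82 ± 1.24 to 14.8 ± 6.02 CPM (SD, n = 10 and 11), and the fibrillar collagen receptors Ddr2, Itga11 and Mrc2 rose by 1.05, 0.71 and 1.09 on the log2 scale.

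The degradation list held 9 tested genes, proteases and their inhibitors, of which 6 rose and 3 were not called (median 2.33). Among all genes tested 14.9% were higher. Of those that rose, 4 encode proteases, and Timp1 (3.71 ± 0.60) and Timp2 (1.47 ± 0.31) encode inhibitors of metalloproteinases (edgeR adjusted p = 0.00011 and 0.00091; both named after their values were seen). Mmp14 and Mmp2, a membrane collagenase and the gelatinase it activates, rose by 2.58 ± 0.29 and 2.56 ± 0.37, the fibroblast protease Fap by 2.33 ± 0.28 and cathepsin K (Ctsk) by 3.73 ± 0.59 (edgeR adjusted p from 1.4e-06 to 8.4e-05). Ctsk had 3.06 to 6.34 CPM in sham and 11.7 to 216 in PX. Of 12 laminin, nidogen and agrin genes that share the basement membrane with type IV, 8 rose and 4 were not called (median 0.68). The laminin beta chains Lamb3 and Lamb1 rose by 1.30 ± 0.20 and 0.91 ± 0.15, and Nid1, which links laminin to type IV collagen, by 1.23 ± 0.23 (edgeR adjusted p from 4.7e-05 to 0.00037).

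Most tested markers of fibroblasts, stellate cells and pericytes, of macrophages and of endothelial cells rose in PX. Acinar markers had positive log2 fold changes with large standard errors, and most were not called. All counts below stand beside shares over all genes tested of 14.9% higher and 16.2% lower. Of 13 tested fibroblast, stellate and pericyte markers 12 rose and 1 was not called, with a summed level of 201 to 440 CPM in sham and 384 to 955 in PX. The top of the sham range was sham 46, at 440 CPM, and the bottom of the PX range PX 44, at 384. All 11 tested macrophage markers rose, from 38.4 to 112 CPM in sham (112 in sham 46) to 108 to 661 in PX (108 in PX 44). Of 12 endothelial markers 9 rose and 3 were not called (506 to 935 and 726 to 1060 CPM). Of 5 duct markers 3 rose and 2 were not called (151 to 198 and 149 to 276 CPM), and among the 18 acinar markers 4 were higher and the remaining 14 not called. The acinar log2 fold changes ran from 0.82 to 2.43 (median 1.35), with standard errors of 0.57 to 0.88. The median summed acinar level was 74300 CPM in sham and 157000 in PX. Of 3 Schwann cell markers 1 rose and 2 were not called (14.0 to 20.7 and 15.1 to 24.1 CPM). The only tested mesothelial marker, Msln, fell by 0.45 ± 0.11 on the log2 scale (edgeR adjusted p = 0.0039). Of 10 islet endocrine markers 1 rose, Iapp by 0.60 on the log2 scale, and 6 were not called. The other 3 fell, Sst by 1.21, Nkx6-1 by 0.64 and Pdx1 by 0.44. No marker of these lists that has a row was at 0 in every library of a group, and the part of these cells in the collagen differences was not tested.

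The sum of 7 collagen genes (Col1a1, Col1a2, Col3a1, Col5a1, Col5a2, Col6a1 and Col6a2) was set beside that of the fibroblast, stellate and pericyte markers in the same library. All 7 were among the genes called higher in PX, so a higher quotient in PX was partly built in. The marker sum mixes genes with small log2 rises, such as Rgs5 (0.81) and Pdgfrb (0.55), with Dcn (2.15) and Lum (3.16). The quotient is therefore not a measure of collagen RNA per cell. The quotient ran from 0.732 to 1.76 in sham (median 0.95) and from 1.38 to 3.95 in PX (median 2.61). The ranges overlapped through sham 46 at 1.76, above PX 44 at 1.38 and PX 57 at 1.56. The other sham libraries reached 1.08 at most, below every PX library. With the acinar score as a covariate, 17 collagen genes were higher and 1, Col11a2, was lower. Over all 13136 genes of that fit, 1276 were higher and 928 lower.

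In the authors' deposited table of the same comparison, made with limma, the 29 tested collagen genes were all listed, 16 as higher and 4 as lower at an adjusted p under 0.05. Of its 13140 genes, 1845 were higher and 2228 lower. Of the 20 calls here 19 had the same direction and side there; Col8a1 was not called and Col9a1 was called lower. The log2 fold changes differed by at most 0.32, for Col18a1.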

How the data were processed

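Polyadenylated RNA of 21 islet libraries was sequenced, 10 from sham and 11 from PX animals, with groups, animal numbers and BG taken from titles and characteristics. The deposited values are whole-number read counts per gene, not normalized, in featureCounts layout per the file headers, together with a gene length in base pairs, deposited by the authors and used for values per kilobase. FastQC, Subread, featureCounts and limma were used, per the submitters' processing notes; neither versions nor the build or strand setting is given in the sources used here. A table of the same comparison that the authors deposited holds, per the file headers, a log2 fold change, a linear fold (ratio) and a p-value with its adjusted p; its calls were compared with those made here.

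Genes passing filterByExpr (at least 10 counts, total at least 15) were fitted in edgeR 4.0.16 (R 4.3.3) with TMM scaling and two-sided robust quasi-likelihood tests, with Benjamini-Hochberg adjustment over all genes tested and a threshold of 0.05. A standard error is the log2 fold change divided by the square root of F. Slopes are per 10 units of BG over the PX libraries. Ratios used counts per kilobase with 0.5 added, and permutation tests (100000 resamples, scipy 1.17.1) adjusted over the 11 ratios computed of 12 chosen; the ratio of Col6a3 to Col6a1 was not analysed. DESeq2 1.42.0 and limma 3.58.1 (voom) were alternatives. The fits were tested on simulated counts.

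Detailed values were given for the 5 tested members of highest mean CPM per kilobase and those of highest and lowest fold change in each class, for BG the 3 smallest p and the 5 highest levels, and up to 4 genes of each pathway list by p; the other members were named for completeness. A gene that this rule names is not reported here. The members, classes and 13 lists (157 genes) were chosen with earlier results of these data known, so they are not independent evidence. All 43 members matched a RefSeq symbol and 34 a RefSeq promoter of GRCr8. Each library's total, 4001908 to 13187959 counts, limits precision most for genes at a few CPM.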

Additional observations from a re-analysis of the deposited data

Results flagged for a closer look

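Within the 10 sham libraries, 1 library stood apart from the others by a Dixon test for 11 of the 29 collagen genes tested. The nominal rate of that test is about 1 group in 20. All these genes were measured in the same libraries, so their flags are not independent. The share of flags over all genes is not given here, so the count does not show that collagen differs from other genes. In each of the 11 it was sham 46. Among fibrillar genes, its Col3a1 was 380 CPM against 149 in the next sham library, its Col1a1 129 against 27.9, its Col1a2 8.42 against 3.87 and its Col5a2 45.5 against 22.1. Among basement membrane genes, Col4a1 was 346 CPM against 220, Col4a2 240 against 124 and Col18a1 97.5 against 20.1, while Col4a5 was low, at 5.90 against 8.85. In the remaining classes, Col6a2 was 94.3 CPM against 42.3, Col12a1 33.7 against 15.7 and Col13a1 18.9 against 9.87. The BG of sham 46 was 97, inside the sham range of 82 to 104. Its summed fibroblast, stellate and pericyte markers were 440 CPM against 201 to 324 in the other sham libraries, and its macrophage markers 112 against 38.4 to 50.6; their part in its collagen levels was not tested.

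Among collagen genes too low to be tested, 3 had a PX median above every sham library. Col17a1, a transmembrane collagen of epithelial attachment, had a PX median of 0.841 CPM against a sham maximum of 0.34, with 133 counts in all PX libraries and 6 in all sham libraries. Col9a3 had 1.18 against 0.984 CPM. Col4a6, a basement membrane chain of epithelia, had 0.708 against 0.53 CPM. With no filter on low counts, edgeR's quasi-likelihood test with Benjamini-Hochberg adjustment called all 3 higher, as well as Col6a4 and Col6a5. That fit called 2701 of 20977 genes higher. The 3 genes were picked by their levels in the same libraries, so these calls are not independent evidence. The share of all low genes with such a PX median is not given here.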

How the results depend on the processing

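Over 19 alternatives, collagen genes higher in PX numbered 15 to 22 and those lower 0 to 4. The lower collagen genes numbered 1 with the acinar score as a covariate and 1 with the 8 PX animals of BG 121 or less. They numbered 0 with PX 36 to 44 alone and 0 against sham 46 to 50 alone. Lower calls over all genes also became fewer, from 2127 of 13136 in the main fit. In the same order they were 928 of 13136, 957 of 13226, 281 of 13287 and 341 of 13778. Leaving out PX 44, PX 65 or sham 46 gave 17 to 19 higher and 2 to 3 lower collagen genes. Scaling by library totals moved the median log2 fold change of all genes from -0.04 to -0.28, and Col11a1 and Col8a1 were then not called. No BG alternative called a collagen gene, and ratios higher in PX numbered 2 throughout, those lower 2 to 4. Calls for all genes ran from 1375 to 6414 against 4088, the fewest with PX 36 to 44 alone and the most with voom. No paired analysis was possible because the groups share no animal numbers.

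Direction changed only for values that were not called, and the cause was not tested. Col28a1 turned to -0.19 under totals, -0.012 with no filter, -0.085 under voom, -0.072 to 0.15 on leaving out PX 44, PX 65 or sham 46, -0.34 with PX 57 to 70, -0.028 against sham 21 to 24, 73 and 74, and -0.0081 in the authors' deposited table. With PX 36 to 44, Col27a1 was 0.096, Col16a1 0.13, Col14a1 0.038 and Col4a4 0.11. Col14a1 was 0.13 and Col4a4 0.0050 with the acinar covariate, 0.28 and 0.059 against sham 46 to 50, and Col14a1 0.074 with the 8 PX animals. Without PX 44, PX 65 and sham 46, Col16a1 was 0.046 and Col4a4 0.011. BG slopes turned to -0.12 for Col3a1 and 0.056 for Col16a1 without PX 41 and 65, to 0.11 for Col14a1 and 0.048 for Col16a1 within sham, to -0.054 for Col4a1 and -0.041 for Col4a2 under totals, and for Col4a1 to -0.055 under voom and -0.041 without PX 44 (0.083 without PX 65). The ratio of Col15a1 to Col4a1 was -0.0063 without PX 44 and up to 0.15 without PX 65.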

Other observations

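Col6a5, a type VI chain that was too low for the test, had its highest levels in 3 libraries of PX 57 to 70: 25.5 CPM in PX 62, 10.0 in PX 58 and 9.95 in PX 65, against at most 1.35 CPM in sham and 1.99 in PX 36 to 44. The same PX 62 had the highest CPM of Col3a1, Col1a2, Col5a2, Col5a3, Col6a1 and Col6a2 of all libraries. These ranks depend on the scaling. PX 62 had 13700 Col3a1 counts of a total of 9459871, and PX 41 had 10924 of 5486631.

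PX 37 was the highest PX library for 10 of the 29 tested collagen genes, among them Col27a1 (1288 CPM), Col16a1 (325 CPM), Col9a1 (150 CPM) and Col4a1 (556 CPM). PX 65 was the lowest PX library for 8, among them Col27a1 (125 CPM), Col11a2 (4.45 CPM) and Col4a3 (6.35 CPM), and the highest for Col18a1 (136 CPM). That last rank depends on the TMM factor of PX 65, 0.359. PX 65 had 644 Col18a1 counts of a total of 13187959, and PX 41 had 768 of 5486631.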
